A study of Mus musculus with 10 samples.

Results

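Cytosolic ribosomal protein genes encode the proteins of the large and small subunits of the ribosome outside mitochondria. They were taken as protein-coding genes whose symbol is Rpl or Rps followed by a digit, together with Rplp0, Rplp1, Rplp2 and Rpsa, and without the S6 kinases, which share the Rps6k name. The rule found 92 of the 53465 genes counted, 57 named for the large and 35 for the small subunit. Of these, 77 are the main gene of a ribosomal protein and 7 are paralogs, Rpl3l, Rpl10l, Rpl22l1, Rpl36al, Rpl39l, Rps27l and Rps27rt. A further 6 carry a pseudogene symbol ending in "-ps" and a number but are annotated as protein-coding, and Rps19bp1 and Rpl7l1 share the name without being core subunits of the ribosome. The set was proposed because these genes were known to be higher after IL-33 in these libraries, that is, it was selected on the IL-33 against control fold changes, so its fold changes and calls are given as a description and support nothing.

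The samples were lung tissue of BALB/c mice, an inbred strain in common use for airway allergy models. The 5 control libraries came from mice that were untreated in the submitters' design text, and the sources used here do not say whether any received vehicle. The 5 IL-33 libraries came from mice that received 1 µg of this epithelial alarmin in 35 µL through the nose, once daily for 5 days. Tissue was collected 24 hours after the final challenge. PolyA-enriched RNA was sequenced, and no animal's age, sex or genotype beyond the strain is given.

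A ribosome is built in the nucleolus from ribosomal RNA and about equal numbers of each protein, so cells normally make ribosomal proteins in balanced amounts and destroy the excess. Their mRNAs are short and abundant and begin with a run of pyrimidines, the 5′ terminal oligopyrimidine (TOP) tract, through which mTOR signalling and the protein Larp1 control their translation. Proliferating cells and secretory cells make many ribosomes.

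Sequences near the annotated transcription start were searched for runs of C and T, since a TOP tract is such a run at the first transcribed base, and they are printed for the 4 members with the largest and the 4 with the smallest log2 fold changes among tested genes at 10 CPM or more, and for the paralog Rpl22l1. CPM is the usual scaling of read counts to the total counted in genes of a library. Each line is 30 bases, 5′ to 3′ on the gene's strand, from the RefSeq promoter table (GRCm38.p6), with the longest unbroken run of C and T within 50 bases of the start in capitals. The stretch of Rpl13a is chr7:45128722-45128751, minus strand. Rps26 is at chr10:128626485-128626514, minus strand. The stretch shown for Rplp0 is chr5:115559466-115559495, plus strand. That of Rps12 is chr10:23787182-23787211, minus strand. Rpl26 is at chr11:68901508-68901537, plus strand. Rpl7l1 is at chr17:46782671-46782700, minus strand. The Rpl10 stretch is chrX:74270836-74270865, plus strand. For Rpl5 it is chr5:107900497-107900526, plus strand. Rpl22l1 is at chr3:28805499-28805528, plus strand.
Rpl13a: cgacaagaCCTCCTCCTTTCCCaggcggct
Rps26: aagccgccggaTCCTCTTTCgagtcttggc
Rplp0: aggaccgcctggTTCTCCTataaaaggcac
Rps12: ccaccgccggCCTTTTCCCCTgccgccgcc
Rpl26: tcccaaccTCCTCTCCCCTTTCgctccgag
Rpl7l1: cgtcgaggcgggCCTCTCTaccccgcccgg
Rpl10: cgtgagcaggcgtgggagcgTCTCTTTTCC
Rpl5: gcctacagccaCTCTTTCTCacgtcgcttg
Rpl22l1: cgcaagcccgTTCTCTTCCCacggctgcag
Within the 50 bases searched, the run is 14 bases long in both Rpl13a and Rpl26, which stand at opposite ends of the order of change. In Rpl26 it meets the edge of the search, and C bases stand directly before it, so its full length is more than 14 bases. The run of Rpl10 ends with its printed line and may also be longer. In Rplp0 and Rpl7l1 the run is 7 bases. In Rpl13a, Rps26, Rplp0, Rps12 and Rpl22l1 it begins within 12 bases after the annotated start, whereas in Rpl26, Rpl7l1 and Rpl5 it lies upstream and in Rpl10 further downstream. In none of the 9 does the run include the annotated start base. An annotated RefSeq start need not be the base where transcription began in these lungs.

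The promoter table held 67 windows of 300 bases (250 before to 50 after a start) for 57 of the 77 main genes. A C or T run of at least 8 bases within 50 bases of the start stood in 54 of the 67 windows, 80.6%, against 35.7% of the 32851 windows of all genes. A run of at least 10 bases was in 70.1% against 18.1%, and the start base lay inside a run of at least 5 bases in 29.9% against 10.1%. The median longest run was 11 bases in windows of ribosomal protein genes and 7 in all windows.

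Short letter motifs were searched on both strands of the same 300-base windows, and a base could count for more than 1 motif. The ETS core CCGGAAG, a site of ETS-family factors such as Gabpa, was in 37.3% of the windows of main genes and in 8.86% of all windows. The YY1 core ATGGCGG was in 17.9% against 4.05%, and the GC box GGGCGG, known as a site of Sp1, in 61.2% against 35.7%. The E-box CACGTG, bound by Myc and Max, was in 11.9% against 7.15%, and the TATA box TATAAA in 8.96% against 13.6%. The 250 bases before the start are shown for Rps26 and for Rpl26, the main genes with nearly the largest and with the smallest change, with motif matches in capitals. They lie at chr10:128626507-128626756, minus strand, and at chr11:68901316-68901565, plus strand.
Rps26: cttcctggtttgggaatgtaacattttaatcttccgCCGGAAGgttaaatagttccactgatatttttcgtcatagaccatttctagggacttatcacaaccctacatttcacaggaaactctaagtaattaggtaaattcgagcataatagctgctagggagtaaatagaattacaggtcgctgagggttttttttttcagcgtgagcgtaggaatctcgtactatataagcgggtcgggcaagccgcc
Rpl26: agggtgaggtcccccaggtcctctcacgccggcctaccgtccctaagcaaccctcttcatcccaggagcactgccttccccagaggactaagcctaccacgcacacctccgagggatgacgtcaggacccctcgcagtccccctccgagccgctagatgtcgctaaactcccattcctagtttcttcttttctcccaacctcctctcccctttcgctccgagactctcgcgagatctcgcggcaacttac
Upstream of Rps26 the only match is an ETS core, and upstream of Rpl26 none of the 5 motifs matched. The window of Rpl26 does hold an ETS core, after the start, so both genes count as having one. Among the 56 tested main genes with a window, the median log2 fold change was 1.52 in the 24 with an ETS core and 1.405 in the 32 without. It was 1.45 in the 48 with a C or T run of at least 8 bases and 1.69 in the 8 without, but 1.58 in the 20 with the start base inside a run of at least 5 bases and 1.44 in the 36 without. For the TATA box it was 1.82 in 6 with and 1.45 in 50 without, for the YY1 core 1.57 in 9 and 1.48 in 47, for the GC box 1.501 in 35 and 1.48 in 21, and for the E-box 1.44 in 6 and 1.49 in 50. A match is a run of letters and says nothing about binding.

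Counted reads came to 8935159 to 13767118 per control library and 7805175 to 13178798 per IL-33 library. Lung epithelial markers reached a summed 31703 to 35637 CPM in controls and 23769 to 26514 CPM after IL-33, which fits the labelled tissue. The summed level of 6 markers of cycling cells was 100.3 to 109 CPM in controls and 569 to 838 CPM after IL-33, and all 6 were called higher. Of 7 leukocyte markers, 5 were called higher and 2 lower, beside 35.1% and 34.8% of all tested genes. Prg2 of eosinophils was at a log2 fold change of 6.92, and the 2 lower were Lyz2 of macrophages at -1.39 and Siglecf at -0.56. The summed level of the 7, most of all Lyz2, was 3780 to 4202 CPM in controls and 1478 to 2187 CPM after IL-33. The part of changed cell makeup in the results on ribosomal proteins was not tested, and in bulk lung tissue fewer cells of a type and less RNA per cell cannot be told apart. No label says that each library came from a separate mouse, or how mice were housed, so the errors given cover only the spread between these libraries.

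Ribosomal protein genes took a larger share of the counted reads after IL-33. The share was 1.71, 1.47, 1.53, 1.44 and 1.49% in controls 1 to 5 and 4.58, 4.96, 4.48, 3.74 and 3.22% in IL-33 libraries 1 to 5. Every IL-33 library lay above every control, and the means were 1.53% and 4.19%. Within the groups, control 1 was the highest control and IL-33 libraries 4 and 5 the lowest of theirs. The 95% Wilson intervals of these shares, which cover counting error only, reach at most 0.0145 percentage points to either side. Control 1 was the highest control in 62 of the 76 tested main genes, IL-33 library 2 the highest of its group in 59 and IL-33 library 5 the lowest in 67.

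**Figure D1:**
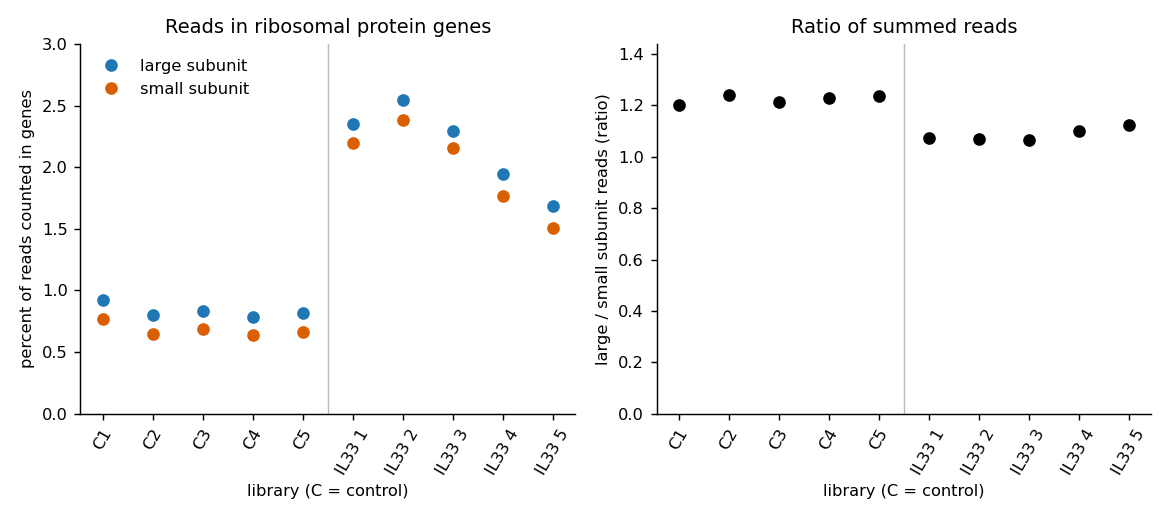
Left, percent of counted reads in large and small subunit main genes per library; right, the ratio of large to small subunit reads. Each point is 1 library (C1 to C5 controls). All 5 IL-33 libraries lie above the controls in both sums, and their ratios of 1.06 to 1.12 lie below the control ratios of 1.20 to 1.24.

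Reads that aligned to more than 1 place are left out of gene counts, and they were 15.0% to 16.2% of all records in controls and 20.0% to 22.8% after IL-33. Ribosomal protein mRNAs have many processed pseudogenes, copies made from mRNA. The same names also matched 285 genes that are not annotated as protein-coding. Processed pseudogenes are among them, and their types were not separated. Those together held 0.00659% to 0.00834% of counted reads in controls and 0.0113% to 0.0170% after IL-33. The share of a gene's 75-base stretches that also occur in another gene's annotated transcripts was used as a rough measure of reads the counting could lose. Both strands were searched and gene models overlapping at the same place were included, so it can overstate that loss. Of the exonic bases of Rpl35 and Rpl23a, 66.2% and 62.3% lie in other models on either strand, but 0% and 2.60% on the same strand. Their shares were 77.3% and 78.1%. The rest of the genome was not searched. The share was under 10% in 16 of the 76 tested main genes, and all 16 were called higher, with a median log2 fold change of 1.55. In the 14 tested main genes with at least 30% shared stretches all were called higher too, with a median of 1.39. Of all 76 tested main genes 75 were called higher, at a median of 1.48, and of all tested genes 35.1%. The set was chosen for this direction, so nothing is read from these counts. The part of lost reads in the changes was not tested.

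Of the 92 members 83 passed the low-count filter, including 76 of the 77 main genes. In the edgeR quasi-likelihood fit over all genes, 81 of the 83 were called higher at an adjusted p under 0.05 and none lower. Across all 15695 tested genes 69.9% were called in either direction, 35.1% higher and 34.8% lower. The uncalled members were Rpl26 and Rps27rt. At least a 2-fold rise was seen in 69 of the 83, against 14.5% of all tested genes, and 6 exceeded 4-fold. The median log2 fold change was 1.45, or 2.73-fold, beside -0.01 over all tested genes. The groups did not overlap, with IL-33 above, for 80 of the 83, against 28.5% of all tested genes, and the overlapping members were Rpl26, Rpl29 and Rps27rt. The set was chosen for this direction, so nothing is read from these shares.

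**Figure D2:**
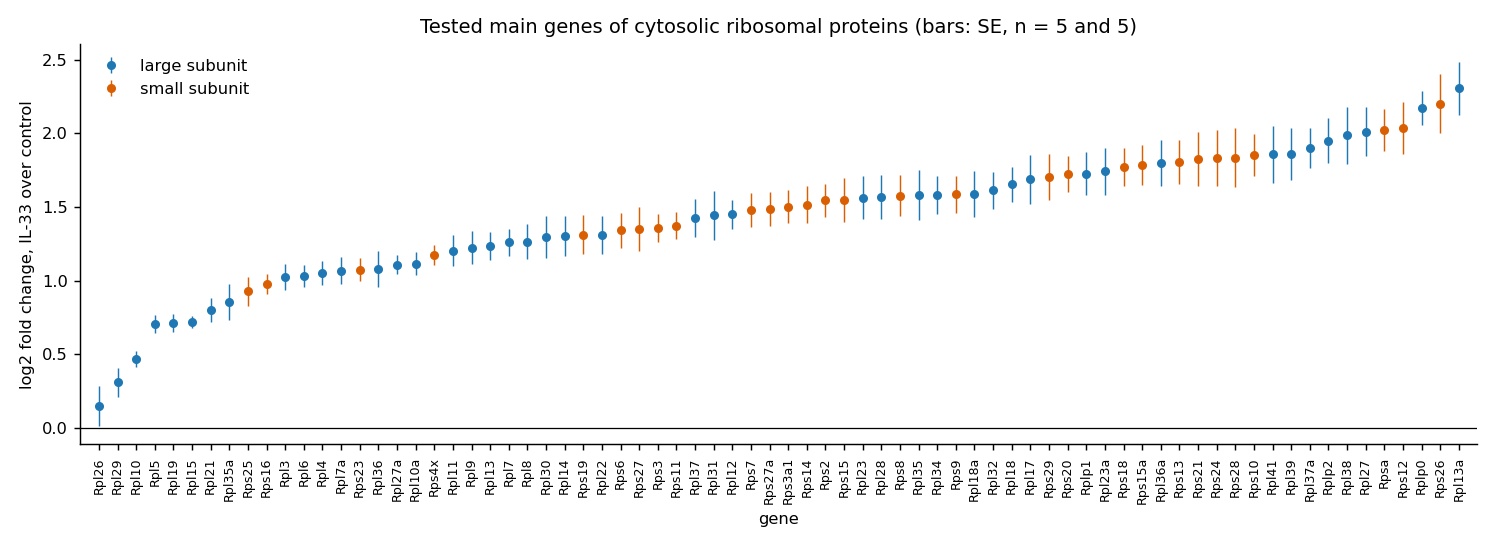
Log2 fold change (IL-33 over control) of 74 tested main genes in rising order, with SE bars over 5 and 5 libraries and colour by subunit. Rpl26, at 0.15, and Rpl29, at 0.31, stand lowest and Rpl13a, at 2.31, highest, and no gene lies below 0.

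The main genes of the large subunit had a median log2 fold change of 1.31, with 44 of 45 called higher. Those of the small subunit had a median of 1.55, with 31 of 31 called higher. The spread was wider in the large subunit, whose genes ran from 0.15 to 2.31, than in the small, from 0.93 to 2.20. Per library, the ratio of large to small subunit reads was 1.20, 1.24, 1.21, 1.23 and 1.24 in controls and 1.07, 1.07, 1.06, 1.10 and 1.12 after IL-33. All 5 IL-33 ratios were below all 5 control ratios. With the trend on principal transcript length and GC content removed, a correction described further on, the difference of large minus small medians over all tested members, paralogs included, was 0.04 in place of -0.20. Over main genes alone the medians were then 0.43 for the large and 0.49 for the small subunit, closer together and in the same order as without the correction.

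The largest change was in Rpl13a (chromosome 7, 45125558 to 45128761, GRCm38), a large subunit protein that also acts outside the ribosome in silencing inflammatory mRNAs. Its level was 13.3, 12.9, 14.8, 12.9 and 15.5 CPM in controls 1 to 5 and 75.2, 90.1, 69.3, 57.6 and 45.1 CPM in IL-33 libraries 1 to 5. The groups lie far apart, at a log2 fold change of 2.31 ± 0.18 (SE, n = 5 and 5). Of its exonic bases 35.4% also belong to other gene models on the same strand, such as Gm45713, which was listed at 0 reads in all 10 libraries. HTSeq by default leaves out reads that fall in more than 1 gene model, though the mode used is not stated, and the part of this in the level of Rpl13a was not tested.

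Rps26 (chromosome 10, 128624534 to 128626747) sits at the mRNA exit channel of the small subunit. It measured 155, 143, 159, 121 and 133 CPM in controls and 696, 892, 675, 529 and 422 CPM after IL-33, a log2 fold change of 2.20 ± 0.20. Even IL-33 library 5, the lowest of its group, was above every control. Rps12 (chromosome 10, 23785183 to 23787275), a protein of the head of the small subunit, was at 371, 322, 352, 311 and 312 CPM in controls and 1464, 1726, 1513, 1104 and 910.5 CPM after IL-33. Its log2 fold change was 2.04 ± 0.18. Rpsa (chromosome 9, 120127689 to 120132369), which is also known as the laminin receptor precursor, followed at 2.02 ± 0.15, from 319 ± 22.5 to 1272 ± 266 CPM (mean ± SD, n = 5).

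The P stalk is the arm of the large subunit that recruits and activates elongation factors. It is built on Rplp0, which carries Rplp1 and Rplp2, and Rpl12 lies at its base. All 4 were called higher, with a median log2 fold change of 1.84. Beside this and the groups that follow stand 75 of the 76 tested main genes and 35.1% of all tested genes called higher. Rplp0 (chromosome 5, 115559467 to 115563727) was at 229, 200.2, 190.4, 193 and 200.001 CPM in controls and 994, 1000.4, 991, 794 and 702 CPM after IL-33, a log2 fold change of 2.17 ± 0.12. Its 2 partners were at 1.73 ± 0.15 (Rplp1) and 1.95 ± 0.15 (Rplp2), while Rpl12 was at 1.45 ± 0.10. Rplp1 ran from 416, 347, 354, 349.9 and 365 CPM in controls to 1331, 1425, 1312, 1029.5 and 853 CPM after IL-33. The lowest IL-33 library of Rplp1 was above its highest control, control 1.

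Rpl5 and Rpl11 form a complex with the 5S ribosomal RNA, which enters the large subunit and, when unassembled, inhibits the p53 ubiquitin ligase Mdm2. Both were called higher and by less than most members. Rpl5 (chromosome 5, 107900502 to 107909005) was at 203, 169, 188, 178 and 188 CPM in controls and 300.1, 313, 320.4, 272 and 284 CPM after IL-33, a log2 fold change of 0.71 ± 0.06. Rpl11 was at 252, 212, 215, 214 and 222 CPM in controls and 559, 571, 532, 449 and 409 CPM after IL-33, or 1.20 ± 0.11. Neither gene's groups overlapped. Of Rpl5's 75-base stretches 47.0% are shared with other genes, and 26.7% of its exonic bases lie in other gene models on either strand.

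Proteins around the exit of the peptide tunnel meet the nascent chain and the factors that bind it. Of 7 such genes 6 were called higher, with a median of 1.58, beside 75 of all 76 tested main genes. Rpl39, the smallest of them and part of the tunnel wall, was at 1.86 ± 0.18, Rpl23a, a docking site for the signal recognition particle, at 1.74 ± 0.16, and Rpl17 at 1.69 ± 0.17. Rpl19 was lower in the order, at 0.71 ± 0.06. The exception was Rpl26 (chromosome 11, 68901583 to 68906989), which also binds the p53 mRNA. It was at 12.8, 11.9, 12.1, 15.0 and 13.9 CPM in controls and 16.6, 17.9, 11.8, 13.2 and 12.2 CPM after IL-33. The groups overlapped and the log2 fold change was 0.15 ± 0.14.

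Rpl10 (chromosome X, 74270812 to 74273135), which joins the subunit late in the cytoplasm near the peptidyl transferase centre, was at 307, 283, 265, 291 and 314 CPM in controls and 393, 373, 392, 416 and 419.5 CPM after IL-33. Its log2 fold change of 0.47 ± 0.05 was the smallest among main genes above 100 CPM in controls. All 5 IL-33 libraries were nevertheless above all controls. Other large subunit genes under a log2 fold change of 1 were Rpl15 at 0.72, Rpl21 at 0.80 and Rpl35a at 0.85. Rpl29 was at 8.35, 6.60, 6.27, 7.26 and 6.80 CPM in controls and 8.66, 9.46, 7.17, 8.44 and 9.41 CPM after IL-33, and its log2 fold change of 0.31 ± 0.10 was called in this fit but not by DESeq2, nor without control 2, 3, 4 or 5 or IL-33 library 1, 2 or 5 (0.26 to 0.31). Rpl3 and Rpl4, large proteins that bind early in assembly, were at 1.03 and 1.05. Rpl38, whose loss in mice disturbs skeletal patterning, was at 1.99, Rpl27 at 2.01 and Rpl41, which encodes the smallest protein of the ribosome, at 1.86.

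In the small subunit, all 13 genes of the head were called higher, with a median of 1.55, from Rps25 at 0.93 to Rps12 at 2.04. All 31 main genes of this subunit were called higher too. Rps3, which lines the mRNA entry channel and also acts with NF-kB, rose from 355 ± 24.5 to 895 ± 116 CPM, and its log2 fold change was 1.36 ± 0.10. Rps6, the substrate of the S6 kinases, was at 1.34 ± 0.12, from 143 ± 14.7 to 357 ± 55.8 CPM. Rps27a, which is made as a fusion with ubiquitin, was at 1.48 ± 0.12. The gene groups overlap in their members, so these counts are not independent.

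Mutations of several ribosomal protein genes cause Diamond-Blackfan anaemia, a failure of red cell production. Of 12 such genes 11 were called higher, with a median of 1.26, and the exception was Rpl26. Of all 76 tested main genes 75 were called higher, at a median of 1.48. Rps19, the gene most often mutated in that disease, rose from 192 ± 13.2 to 468 ± 84.8 CPM, and its log2 fold change was 1.31 ± 0.13. Rps24 was at 1.83 and Rps7 at 1.48.

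In the control lungs, levels of different genes were set side by side per kilobase of the principal transcript. The highest were Rps27 at 1069 ± 91.4, Rplp1 at 734 ± 57.6, Rps29 at 726 ± 67.6 and Rps15 at 693 ± 52.7 CPM per kilobase (mean ± SD, n = 5). Rps27 and Rplp1 do not overlap within their SDs, while Rplp1, Rps29 and Rps15 lie within their combined spread. The lowest main genes were Rpl24 at 0.713 ± 0.212, Rpl29 at 12.1 ± 1.39, Rpl13a at 13.3 ± 1.15 and Rpl26 at 24.9 ± 2.46 CPM per kilobase. By the length of all exons, Rplp1 came first at 734 ± 57.6, then Rps15 at 549.8 ± 41.8 and Rps29 at 408 ± 38.0, and Rpl36al, Rps27rt and Rpl9-ps6 were the lowest tested members. The share of 75-base stretches found in other genes was 50.3% for Rpl24, 28.2% for Rpl29, 19.3% for Rpl13a and 17.1% for Rpl26, and 22.5% for Rps27, 45.9% for Rplp1 and 15.1% for Rps15. The part of lost reads in the order of levels was not tested.

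Rpl24 was the main gene that did not pass the filter. It held 8, 6, 4, 5 and 3 reads in controls and 8, 4, 2, 10 and 8 reads after IL-33, 26 and 32 in all, with groups that overlapped. Of its exonic bases 47.0% lie in the gene model Gm28037 on the same strand, which held 0 reads in every library. Of its 75-base stretches 50.3% occur in other genes, a share that can include stretches in Gm28037. How many reads left out as ambiguous or multiply aligned came from Rpl24 was not tested.

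Some ribosomal proteins have a paralog with a narrower range of tissues. Rpl22l1 (chromosome 3, 28805436 to 28807424) can replace Rpl22, an RNA-binding protein with a known role in T cell development. Rpl22l1 was at 40.2, 34.6, 27.5, 38.8 and 37.0 CPM in controls and 153, 124, 133, 119.5 and 87.3 CPM after IL-33, a log2 fold change of 1.81 ± 0.16. Rpl22 itself was at 185, 168, 166, 163 and 169.9 CPM in controls and 452, 489, 462, 369.6 and 306 CPM after IL-33, or 1.31 ± 0.13. As a percent of Rpl22 reads, Rpl22l1 was 21.7, 20.6, 16.6, 23.8 and 21.8% in controls and 33.8, 25.3, 28.8, 32.3 and 28.5% after IL-33. The mean moved from 20.9 ± 2.65% to 29.8 ± 3.40% (SD, n = 5), and every IL-33 library was above every control.

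Rps27l, a p53-inducible paralog of Rps27, rose from 40.8 ± 4.55 to 88.3 ± 14.6 CPM, and its log2 fold change was 1.14 ± 0.13. Rps27 was at 1.35 ± 0.15, from 369 ± 31.5 to 924 ± 182 CPM. Rps27l was 11.3, 12.2, 10.8, 10.4 and 10.5% of Rps27 reads in controls and 9.62, 9.15, 9.44, 9.46 and 10.4% after IL-33, and the groups overlapped. Rpl7l1, a nucleolar protein related to Rpl7, was at 55.0, 57.5, 52.4, 50.5 and 51.2 CPM in controls and 63.7, 61.9, 61.9, 60.9 and 63.0 CPM after IL-33, a log2 fold change of 0.25 ± 0.04. Against Rpl7, at 1.26 ± 0.09, its reads went from 13.2 ± 0.854% to 6.64 ± 0.953% of Rpl7 reads, with every IL-33 library below every control. Rps19bp1, which binds Rps19 and is no ribosomal protein, was at 0.84 ± 0.15.

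**Figure D3:**
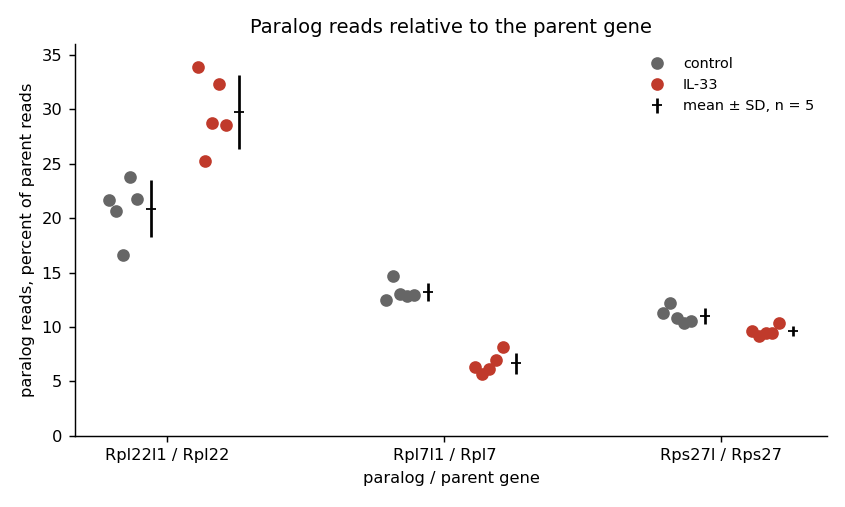
Reads of Rpl22l1, Rpl7l1 and Rps27l as a percent of the reads of their parent gene, 1 point per library, with mean and SD of 5. Rpl22l1 lies higher after IL-33 and Rpl7l1 lower, without overlap, while the Rps27l groups overlap.

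Rpl3l, the striated muscle paralog of Rpl3, was the member that stood lower after IL-33. It held 18, 18, 7, 7 and 17 reads in controls and 4, 7, 3, 17 and 5 reads after IL-33, and the groups overlapped. The ratio of the summed reads, each scaled to its group total, IL-33 over control, was 0.544 with an exact 95% interval of 0.352 to 0.827 that covers counting error only. It did not pass the low-count filter with all libraries. Without control 4 it did, and was then called lower at -1.06. Of 8 cardiac muscle markers 6 were called lower, beside 34.8% of all tested genes, with Myh6 at -2.28. The groups overlapped for 6 of the 8, and IL-33 was below without overlap for 2. The summed level of the 8 was 980.4, 2159, 1002, 562 and 1818 CPM in controls and 203, 579, 387, 551 and 410.3 CPM after IL-33. The part of heart or lung vein muscle in the Rpl3l counts was not tested. Rpl3 itself rose from 273 ± 24.8 to 546 ± 56.7 CPM.

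Rpl39l, a paralog best known from testis, held 1 read in all controls and 22 after IL-33 (7, 3, 6, 5 and 1), a ratio of 22.3 with an interval of 3.60 to 919. Its parent Rpl39 was at 1.86 ± 0.18. Rpl36al held 9, 6, 4, 6 and 4 reads in controls and 29, 22, 20, 23 and 14 after IL-33, a ratio of 3.77 (2.48 to 5.89), and 24.5% of its exonic bases overlap another gene model. Rpl36a was at 1.80 ± 0.16. Rps27rt held 15, 7, 14, 2 and 5 reads in controls and 10, 15, 13, 18 and 11 reads after IL-33, the groups overlapped at 0.69 ± 0.49 (1.01 and called without control 3), and 90.3% of its stretches are shared with other genes. Rpl10l had 0 reads in all libraries, which allows up to 0.218 to 0.384 CPM by a floor of 3 reads in a library.

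Among the 6 members with a pseudogene symbol, Rpl9-ps6 passed the filter, at 0.67 ± 0.12. Rpl36a-ps1 held 3, 0, 3, 4 and 1 reads in controls and 13, 17, 8, 13 and 12 after IL-33. Rpl10-ps3 held 1, 0, 0, 2 and 3 reads in controls and 5, 2, 1, 3 and 2 reads after IL-33. Rpl9-ps1 held 2 reads in 1 IL-33 library, and Rps12-ps3 and Rpl36-ps4 held none. Whether reads in such copies came from the parent mRNA was not tested.

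Length moved with the change. Over all 14239 tested genes with a principal transcript, the one the annotation marks as the main isoform, the rank correlation (Spearman's rho) between that length and the log2 fold change was -0.39. This is across genes of the same libraries, which are not independent. In the shortest of 10 bins, 48 to 1126 bases, the median was 0.72 over genes that are not members, and in the longest it was -0.37. That shortest bin held 69 of the members, whose median was 1.48. With transcripts of at most 1000 bases, 58 of 59 tested main genes were called higher, at a median of 1.501, and 86.4% rose at least 2-fold. Of the 1046 other tested genes of that length 731 were called higher, at a median of 0.77, and 38.3% rose at least 2-fold. Among the 76 main genes themselves rho with principal transcript length was -0.24, with GC content 0.11 and with the control level -0.02.

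**Figure D4:**
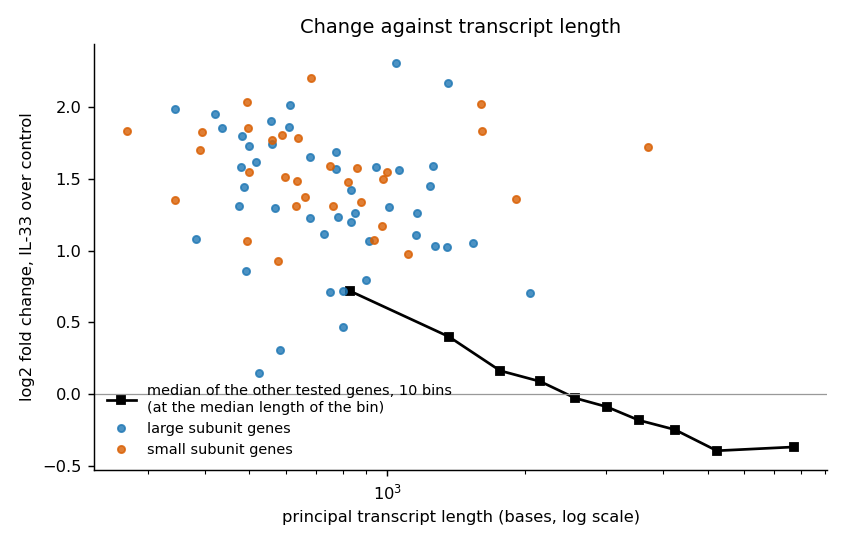
Log2 fold change of the 76 tested main genes against principal transcript length (log scale), with the median of all other tested genes in 10 length bins. Most main genes lie above the line of medians, which runs from 0.72 in the shortest bin to -0.37 in the longest, and Rpl26, Rpl29 and Rpl10 lie below it, with Rpl19 at 0.71 just under.

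The trend was then removed in each library with offsets fitted on the genes that are not members. With the trend on exonic length and GC content removed, the median of the tested members was 0.91, 73 were called higher and 2 lower, while 29.7% of all tested genes were higher and 38.7% lower. The 2 were Rpl26 and Rpl9-ps6, both at -0.43. With principal transcript length in place of exonic length, an alternative added after the data were seen, the median was 0.43, with 55 called higher and 12 lower beside 29.7% and 37.5% of all tested genes. Among the 12 lower were Rpl10, Rpl15, Rpl19, Rpl26, Rpl29, Rpl35a, Rpl36, Rpl7l1, Rps25, Rps27l and Rps27rt. Rpl26 was then at -1.17 and Rpl10 at -0.45. Of the 6 largest changes without correction, Rplp0 was then at 1.71, Rpsa at 1.65, Rpl13a at 1.63, Rps26 at 1.10, Rpl27 at 0.87 and Rps12 at 0.60. The highest corrected value was that of Rps20, at 1.85 in place of 1.72. Its principal transcript was taken as 3706 bases, against a median of 740 over tested main genes, so its value rests on that choice of transcript. The size of the rise over the set therefore depends on how length is treated, and a correction also removes any change that short mRNAs truly share. The sources used here give no RNA quality per library.

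**Figure D5:**
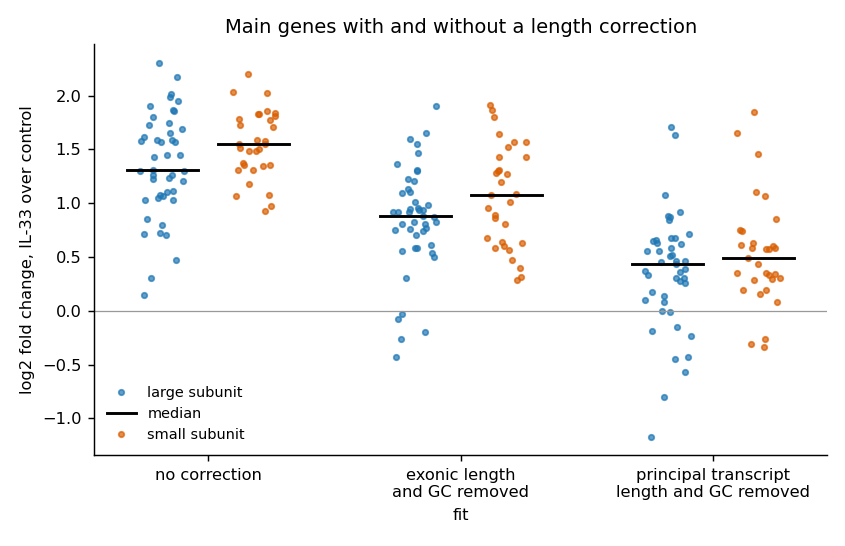
Log2 fold change of the 76 tested main genes with no correction, with the trend on exonic length and GC removed, and with the trend on principal transcript length and GC removed, by subunit. Points are genes and bars medians, which move toward 0 from left to right in both subunits.

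Fau and Rack1 are ribosomal proteins with names outside the rule. Fau, a ubiquitin-like fusion that yields a small subunit protein, rose from 98.3 ± 10.8 to 272 ± 43.3 CPM, and its log2 fold change was 1.495 ± 0.12. Rack1, a scaffold for kinases on the small subunit, was at 1.30 ± 0.08, from 363 ± 26.7 to 875 ± 88.1 CPM.

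A list of 12 elongation factors and other mRNAs known for TOP tracts held 11 called higher and none lower, at a median of 0.83. The share over all tested genes, 35.1% higher and 34.8% lower, stands beside this and the following lists. The elongation factor subunit Eef1b2 was at 1.91 ± 0.13, from 166, 136, 140.1, 139.6 and 143 CPM in controls to 571, 648, 582, 464 and 413 CPM after IL-33. Eef1a1, which brings aminoacyl-tRNA to the ribosome and held the most reads of the list, was at 0.21 ± 0.07, and Hnrnpa1, at 0.07 ± 0.08, was not called. Of 28 initiation factors 19 were higher and 3 lower, at a median of 0.32. Eif3k of the eIF3 complex was at 1.26, the helicase Eif4a2 at -0.48 and Eif4g2, with the most reads, at -0.30.

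Of 30 ribosome biogenesis genes 16 were higher and 2 lower, at a median of 0.33. Nhp2, a core protein of the complexes that pseudouridylate ribosomal RNA, was at 1.72 ± 0.14, the nucleolar protein Ncl at 0.61 ± 0.06 and the acetyltransferase Nat10 at -0.32. Of 20 genes of RNA polymerase I, which transcribes ribosomal RNA, and its factors 11 were higher and 3 lower, at a median of 0.43, with Taf1d at 1.55, Taf1a at -0.46 and Ubtf, uncalled, at 0.01. All of these lists have longer transcripts than the ribosomal proteins, with median principal lengths of 1891 to 2650 bases, and with that trend removed their medians were 0.39, 0.23, 0.27 and 0.18 in the order given.

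Lists of regulators held calls in both directions. Of 14 tested genes of mTOR and translation control 5 were higher and 7 lower, at a median of -0.09, beside 35.1% and 34.8% of all tested genes. Pdcd4, an inhibitor of the helicase Eif4a1, was at 1.05 ± 0.10, Tsc2, a brake on mTOR, at -0.86 ± 0.08 and Eif4ebp2 at -0.19. Also called lower were Mtor itself at -0.66, Sesn2 at -0.68, Tsc1 at -0.49, Rptor at -0.39 and Rheb at -0.18. With the trend on principal transcript length and GC removed, 2 of the 14 were higher and 6 lower, at a median of -0.16. All tested genes were then 29.7% higher and 37.5% lower. Mtor was then at -0.33, Tsc2 at -0.56 and Rheb at -0.50, while Tsc1 at -0.16 and Rptor at -0.03 were not called. Of 10 S6 kinase genes 2 were higher and 4 lower. Of 11 genes of the Myc network 6 were higher and 2 lower, with Myc itself from 9.43 ± 3.73 to 18.8 ± 5.89 CPM at 1.02 ± 0.31, Mxd3, an antagonist of Myc active in dividing cells, at 3.80 ± 0.22, Mga at -0.37 and Mxd4 at -0.26. Of 6 genes of the Mdm2 and p53 axis 3 were higher and 1 lower, with Bax at 0.78, Ccng1 at -0.22 and Mdm4 at 0.27. With the same trend removed, 4 S6 kinase genes were higher and 2 lower. The Myc network then held 3 higher and 1 lower, and the Mdm2 and p53 axis 1 and 1. Myc at 0.56, Mga at -0.13, Mxd4 at -0.14, Bax at 0.14 and Ccng1 at -0.13 were then not called.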

How the data were processed

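The deposited files hold raw read counts per gene for each of the 10 libraries. Per the labels' protocols, polyA-enriched RNA went into a stranded kit, and the submitters' processing notes name FastQC 0.11.6, MultiQC 1.6, STAR 2.5.4b, HTSeq 0.9.1 and GRCm38. The strand setting, read length and annotation release remain not given in the sources used here. Of the deposited identifiers, 53274 matched a GRCm38 annotation, which gave symbols, biotypes, exons and principal transcripts.

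All 10 libraries entered 1 edgeR 4.0.16 quasi-likelihood fit (R 4.3.3, TMM, filterByExpr) with group as its term, and p-values were adjusted by Benjamini-Hochberg over 15695 genes at 0.05. Left out were 5 entries of reads in no gene, ambiguous or multiply aligned and the like. The SE of a log2 fold change is from log2(CPM + 0.1) over 5 and 5 libraries, the change itself from edgeR. A count of 3 reads, 0.218 CPM in the deepest library, was the floor. Shared sequence was measured in 75-base windows, with 50 and 100 beside it. Offsets for length and GC used splines with 5 degrees of freedom. The fit was tested on 1 simulated set with 200 of 15695 genes changed. It called 64.2% of the genes changed 1.5-fold, 76.9% at 2-fold and 100% at 4-fold, and 4.82% of its calls were false. In the real data 69.9% of tested genes were called, so the simulation does not test the scaling under so many changes.

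The members, lists and motifs were chosen with earlier results of these data known. The rule for genes shown per library takes the 4 largest and smallest changes at 10 CPM or more, the 3 highest and lowest per kilobase, paralogs with parents, the P stalk and 5S genes, uncalled members and, of each list, the largest rise, largest fall and most abundant member. Other named genes were chosen after their values were seen, and some genes are not reported here by name.

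Alternatives were DESeq2 (1.42.0, also its size factors), limma-voom (limma 3.58.1), library size alone, TMM without the members, other filters, an adjusted p of 0.01, a replicate block, the length corrections and leaving out each library. Replicate numbers were not taken to pair the samples outside the replicate block.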

Additional observations from a re-analysis of the deposited data

Results flagged for a closer look

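In 20 of 166 groups of 5 libraries looked at, those of 81 tested members and of the share of reads and the subunit ratio, 1 library stood apart by the gap test of Dixon, which chance does in about 1 in 20 groups. In every case it was control 1, the highest control, with the other 4 controls close together. In the large subunit these were Rpl7 at 440 CPM, Rplp1 at 416, Rpl12 at 279.9, Rpl32 at 257, Rpl11 at 252, Rpl13 at 241, Rplp0 at 229, Rplp2 at 199.8, Rpl37 at 176, Rpl38 at 114, Rpl36 at 99.4 and Rpl27 at 67.6 CPM. In the small subunit they were Rps4x at 494 CPM, Rps27 at 424, Rps29 at 329.6, Rps20 at 229, Rps21 at 222, Rps19 at 216, Rps27a at 204 and Rps15a at 203 CPM. The genes are measured in the same library, so these are not separate events. Without control 1, 82 members were called higher and the median log2 fold change was 1.49.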

How the results depend on the processing

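The number of members called higher was 80 to 82 and their median log2 fold change 1.41 to 1.47 under other scalings (library size alone, DESeq2 size factors, TMM without the members), other filters, DESeq2, limma-voom, an adjusted p of 0.01 where it applies and the replicate block (81 higher, none lower, median 1.44, large minus small -0.21). The replicate numbers gave correlations of deviations from -0.06 to 0.24, with 1 of 5 libraries best matched to its own number. This shows no clear pairing, and 5 libraries per group cannot exclude one. With 1 library left out the count was 80 to 82, and the median 1.38 to 1.56. Between 0 and 1 member was then called lower, Rpl3l at -1.06 without control 4, where it entered the test (uncalled at -0.90 with all libraries and no filter). The difference of large minus small medians was -0.14 to -0.21, and -0.15, -0.14 and -0.15 without controls 1, 2 and 5. It was -0.23 over main genes alone and -0.29 over members with under 10% shared stretches. Rpl29 lost its call under library size alone, without a filter, with DESeq2 and without control 2, 3, 4 or 5 or IL-33 library 1, 2 or 5, and Rps27rt was called without control 3, at 1.01.

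The cause of the shifts under the length corrections was not tested. With exonic length and GC removed, the median was 0.91, 2 members were called lower and the large minus small difference was -0.11. Values that changed sign were Rpl10 at -0.032, Rpl19 at -0.076, Rpl26 at -0.43, Rpl29 at -0.27, Rpl36 at -0.19, Rpl9-ps6 at -0.43 and Rps27rt at -0.83. With principal transcript length and GC removed, the median was 0.43, 12 members were called lower and the difference turned to 0.037 over all members (main genes alone kept their order, at medians of 0.43 large and 0.49 small). Among the values then below 0 were Rpl10 at -0.45, Rpl15 at -0.19, Rpl19 at -0.24, Rpl21 at -0.011, Rpl22 at -0.15, Rpl26 at -1.17, Rpl29 at -0.80, Rpl31 at -0.0043, Rpl35a at -0.57, Rpl36 at -0.43, Rpl7l1 at -0.25, Rpl9-ps6 at -0.36, Rps25 at -0.31, Rps27 at -0.26, Rps27l at -0.26 and Rps27rt at -0.92. Depth limits Rpl24, Rpl3l, Rpl36al, Rpl39l and Rps27rt, whose groups held 1 to 108 reads.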
